A study of Mus musculus with 8 samples.

Results

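Cytosolic ribosomal proteins are the protein parts of the ribosome that works in the cytoplasm, and their genes are the subject here. Members were taken by symbol: Rpl or Rps followed by a number and at most a short paralog suffix, plus Rplp0, Rplp1, Rplp2 and Rpsa, with at least 20 unique molecular identifiers (UMIs, 1 per captured RNA molecule) over all 8 libraries. Of 54232 genes in the files 89 symbols matched and 85 reached that minimum, 50 of the large subunit and 35 of the small subunit. The 85 members are therefore a choice by name and level, and neither the 296 symbols for ribosomal pseudogenes that end in -ps and a number nor the 10 Rps6k kinase symbols are among them. In the GENCODE annotation 81 members are protein coding. The other 4 (Rps3a2, Rps3a3, Rps4l and Rpl32l) are annotated as processed pseudogenes, which goes against the name of the set for these 4. At the lower edge the members with the fewest UMIs were Rpl3l with 135, Rps3a2 with 200 and Rpl29 with 720, while Rpl6l with 18, Rpl39l with 5, Rpl10l with 1 and Rps12l1 with 0 fell below the minimum.

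Nuclei came from a 2 mm cube of forebrain tissue next to the lesion site, taken from male Swiss Webster mice, an outbred stock, at 10 weeks of age, and their RNA was counted from the 3′ end by droplet sequencing. There were 4 groups with 2 libraries each, labelled as biological replicates: control surgery, BCAS surgery, TBI surgery, and BCAS+TBI, in which both were done. TBI is traumatic brain injury. The labels used here give BCAS only as an abbreviation, the series title names cerebral hypoperfusion, and no time between surgery and tissue collection is given. What the control surgery consisted of, and whether 1 library holds 1 animal, is not given either.

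A ribosome holds a single copy of nearly every ribosomal protein, so cells make these proteins in matched amounts. Their mRNAs are short, stable and abundant, and in most cells they lie in the cytoplasm on ribosomes, so a preparation of nuclei captures newly made transcripts and whatever cytoplasm stays attached or floats free. Most ribosomal protein mRNAs begin with a C followed by a run of pyrimidines, the terminal oligopyrimidine (TOP) tract, through which mTOR signalling and Larp1 set how strongly they are translated.

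The start regions below are shown because they hold motifs that some members have and that the choice by symbol did not use. They come from RefSeq on build GRCm38.p6 and run from 15 bases before to 15 bases from the annotated start. Capitals in the first 5 mark the C and the unbroken pyrimidines that follow it at the start, those in Rpl26 mark CCGGAAG, and those in Rps28 mark TCTCGCG.
Rps27: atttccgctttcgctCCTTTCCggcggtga
Rps6: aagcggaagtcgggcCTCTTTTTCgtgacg
Rps21: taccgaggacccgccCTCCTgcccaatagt
Rps15a: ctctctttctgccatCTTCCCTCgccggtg
Rpl15: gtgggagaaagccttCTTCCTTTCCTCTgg
Rpl26: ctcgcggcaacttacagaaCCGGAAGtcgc
Rps28: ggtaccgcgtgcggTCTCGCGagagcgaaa
The windows lie at chr3:90213634-90213663 (minus strand) for Rps27, chr4:86857353-86857382 (minus) for Rps6, chr2:180257364-180257393 (plus) for Rps21, chr7:118116133-118116162 (minus) for Rps15a, chr14:18270972-18271001 (minus) for Rpl15, chr11:68901551-68901580 (plus) for Rpl26 and chr17:33824548-33824577 (minus) for Rps28.

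RefSeq starts of 62 members were at hand. A C at the annotated start followed by at least 4 pyrimidines was found in 14 of the 62 (22.6%), against 3.01% of 27025 genes. In the whole 300-base window, searched on both strands, CCGGAAG, the core of sites for ETS factors, was found in 25 of 62 members (40.3%) and in 9.93% of all genes. TCTCGCG, searched in the same way, was found in 14 members (22.6%) and in 2.92% of all genes, whereas TATAAA was found in 12.9% of members and in 15.7% of all genes. An annotated start a few bases off the true cap hides a TOP tract, so these shares count letters in a window and not sites in use. Coding members with and without the C and pyrimidine run had median log2 fold changes of 1.24 and 1.28 between the library sets described below.

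The libraries fell into 2 sets by depth. One library of each group held 28118725 to 33363564 UMIs with a median of 3276 to 3830 per barcode (control 1, BCAS 1, TBI 1 and BCAS+TBI 2, the low-depth set), and the other held 42651388 to 56135192 with a median of 5462 to 6409 (the high-depth set). Of 53390 barcodes 45467 were kept as nuclei, 5030 to 7151 per library, and any 2 libraries shared 5 to 20 barcodes. The sets were drawn from the depth alone and every group has 1 library in each, so group comparisons were fitted with the set as a term. Replicates here are libraries, and p-values measure the spread between libraries.

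To see how much of the captured RNA came from ribosomal protein genes, their UMIs were summed in every library. In kept nuclei the members took 0.445% (control 1), 0.466% (BCAS 1), 0.572% (TBI 1) and 0.641% (BCAS+TBI 2) of UMIs in the low-depth libraries. In the high-depth libraries they took 0.218% (control 2), 0.172% (BCAS 2), 0.183% (TBI 2) and 0.176% (BCAS+TBI 1). The 4 low-depth libraries were all above the 4 high-depth ones, and the groups overlapped one another. The mean was 0.531% ± 0.0919 (SD, n = 4) in the low-depth set and 0.187% ± 0.0211 (SD, n = 4) in the high-depth set. Within a group the low-depth library had 2.04 to 3.63 times the share of its high-depth partner, with a mean of 2.88 ± 0.674 (SD, n = 4 groups). Wilson 95% intervals were narrow beside these gaps, the widest running from 0.638% to 0.644% in BCAS+TBI 2, and cover counting error only. A library sum cannot tell apart more of this RNA per nucleus from more nuclei of types rich in it. Because the members were chosen with results known, the summed share is given as values with no test.

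**Figure D1:**
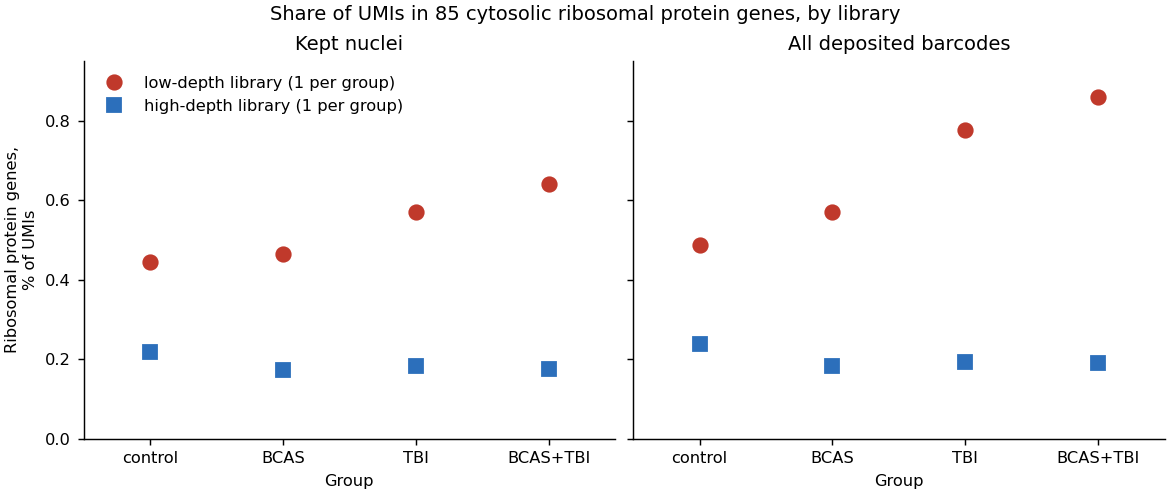
Each point is 1 library, with the group on the horizontal axis and the percent of UMIs in the 85 members on the vertical axis, for kept nuclei and for all deposited barcodes. Low-depth libraries (circles) lie between 0.445% and 0.641% in kept nuclei and high-depth libraries (squares) between 0.172% and 0.218%.

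Gene by gene, ribosomal protein RNA was higher in the low-depth set for nearly every member. In edgeR's quasi-likelihood test on counts summed per library, with group as the other term, 82 members were higher and 2 lower at an adjusted p under 0.05, against 58.4% of 23823 genes called, 31.4% higher and 27.0% lower. With library totals as the only scaling, which moved the median of all genes from a log2 fold change of 0.05 to 0.24, 9823 genes were higher and 3665 lower in place of 7476 and 6437, while the members stayed at 82 and 2. The median over the 85 members was a log2 fold change of 1.30, against 0.05 over all genes tested. For 83 members every low-depth library exceeded every high-depth one in CPM, the gene's UMIs scaled to one total for all libraries, which held for 40.4% of all genes. Large-subunit members had a median of 1.25 and small-subunit members 1.36.

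Members with many UMIs moved together. Rpl13, of the large subunit, was at 118, 139, 144 and 163 CPM in control 1, BCAS 1, TBI 1 and BCAS+TBI 2, and at 52.1, 38.7, 37.6 and 39.6 CPM in control 2, BCAS 2, TBI 2 and BCAS+TBI 1. The sets did not overlap and the log2 fold change was 1.56 (SE 0.13). Rplp1, an acidic protein of the ribosomal stalk that recruits elongation factors, was at 109 to 174 CPM against 31.2 to 50.8 CPM (1.67, SE 0.19), and its stalk partner Rplp0 was at 24.9 to 33.8 against 6.97 to 8.93 CPM (1.76, SE 0.13). Rpl9, Rpl41 and Rps24 rose by 1.47 (SE 0.11), 1.32 (SE 0.13) and 1.12 (SE 0.13) on the log2 scale.

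The 6 members with the smallest p-values in this comparison had log2 fold changes of 1.27 to 1.42 and an adjusted p of 9.73e-05 each. Rpl3, which helps form the peptidyl transferase centre, was at 88.3 to 124 CPM in the low-depth set and at 30.02 to 35.2 CPM in the high-depth set (log2 fold change 1.42, SE 0.09). Rps7 (1.42, SE 0.10), Rpsa (1.40, SE 0.10), which is also the laminin receptor precursor, Rps3a1 (1.27, SE 0.09), Rpl27a (1.28, SE 0.09) and Rpl22l1 (1.29, SE 0.09) completed the 6. Among coding members the smallest rises that passed the test were those of Rpl4 (0.60, SE 0.09), Rpl7l1 (0.63, SE 0.09) and Rpl22 (0.77, SE 0.13). Rpl3l, the muscle form of Rpl3, was at 0.310 to 0.573 CPM, with 11 to 17 UMIs per library, and was the only member that did not pass (0.41, SE 0.26, adjusted p = 0.196).

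**Figure D2:**
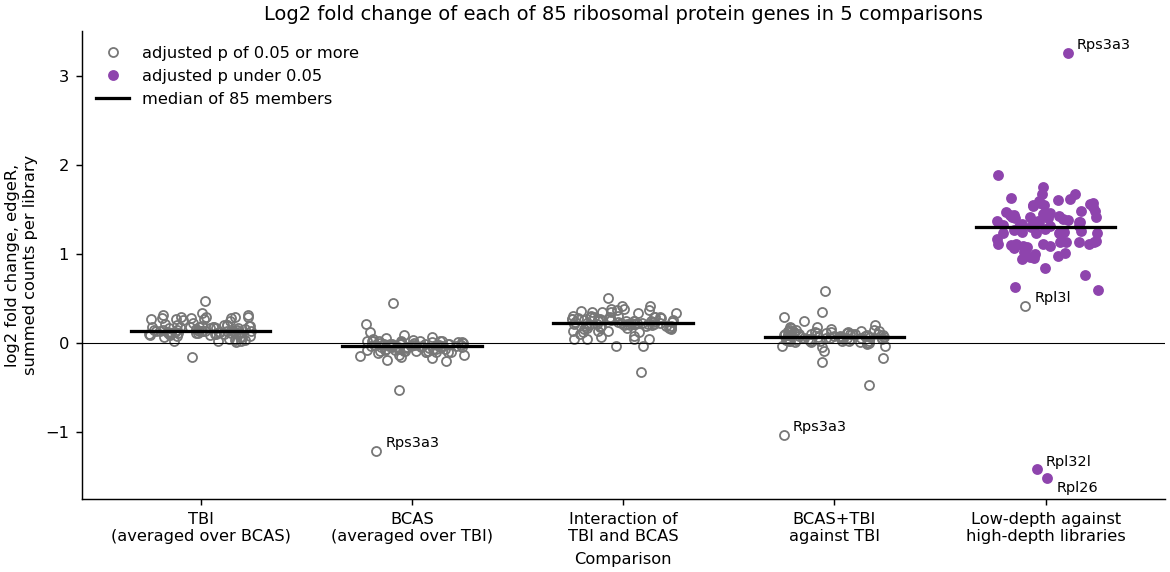
Each point is 1 of the 85 members, with the comparison on the horizontal axis and its log2 fold change in the edgeR fit on the vertical axis; filled points passed an adjusted p of 0.05 and the bar is the median. Medians lie at 0.14, -0.04, 0.22 and 0.07 in the 4 group comparisons, where no point is filled, and at 1.30 between the library sets.

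Rpl26, a coding member of the large subunit known for binding p53 mRNA, went the other way. It was at 5.57, 4.65, 6.64 and 6.51 CPM in control 1, BCAS 1, TBI 1 and BCAS+TBI 2, and at 18.1, 12.8, 14 and 13.9 CPM in control 2, BCAS 2, TBI 2 and BCAS+TBI 1. It was the only member for which every low-depth library lay below every high-depth one, which held for 15.5% of all genes (log2 fold change -1.52, SE 0.12, adjusted p = 9.95e-05). The same direction passed the test in excitatory neurons (-1.24, SE 0.15), inhibitory neurons (-1.43, SE 0.23), oligodendrocytes (-1.35, SE 0.36) and endothelial nuclei (-2.40, SE 0.53), and in astrocytes the value was -0.90 (SE 0.41, adjusted p = 0.0982). The annotated gene is on chromosome 11 from 68901583 to 68906989 and has 3963 intronic bases, and the files list 6 named pseudogenes of Rpl26. How reads were divided among these copies is not given in the sources used here.

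Rps3a3, a processed pseudogene of Rps3a1, was nearly missing from 2 libraries. It lies inside Pde4d on the same strand (chromosome 13, 108670603 to 108671397). It was at 18.9, 21.6, 23.0 and 26.5 CPM in the low-depth libraries control 1, BCAS 1, TBI 1 and BCAS+TBI 2, at 5.95 and 4.89 CPM in control 2 and TBI 2, and at 0.365 and 0.185 CPM in BCAS 2 and BCAS+TBI 1. The last 2 libraries, with 18 and 7 UMIs, stood apart from the other 6, which had 221 to 661, while the coding Rps3a1 was at 19.6 and 20.6 CPM in these 2 and at 15.7 to 18.1 CPM in their high-depth counterparts. The low reading held across cell types. Excitatory neurons had 8 and 6 Rps3a3 UMIs in BCAS 2 and BCAS+TBI 1 against 74 to 166 in the other libraries, and astrocytes, oligodendrocytes and endothelial nuclei had 0 in both. Rps3a3 rose by 3.27 on the log2 scale between the library sets (SE 0.76, adjusted p = 0.00714). BCAS surgery was done in both low libraries and also in BCAS 1 and BCAS+TBI 2, where Rps3a3 was at 21.6 and 26.5 CPM. The BCAS comparison gave Rps3a3 a log2 fold change of -1.22 (SE 0.74, adjusted p = 1.0). Pde4d, whose intron or exon reads could overlap Rps3a3, was at 1466 and 1551 CPM in the 2 low libraries and at 1211 to 1631 CPM in the others. The cause of the low Rps3a3 values was not tested.

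The other 3 pseudogene members differed among themselves. Rpl32l, inside Map7, was at 1.43, 3.60, 1.32 and 2.33 CPM in the low-depth set and at 5.12, 3.39, 4.76 and 6.68 CPM in the high-depth set, so that the sets overlapped. Its log2 fold change was -1.42 (SE 0.32, adjusted p = 0.00611), and that of its host Map7 was -0.48 (SE 0.07). Rps3a2, with 4 to 26 UMIs per library, and Rps4l, which lies opposite Tmtc1, rose by 1.89 (SE 0.34) and 1.62 (SE 0.27) on the log2 scale. Near-identical copies share reads, so the values of these 4 and of their parents are uncertain in the split between copies.

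**Figure D3:**
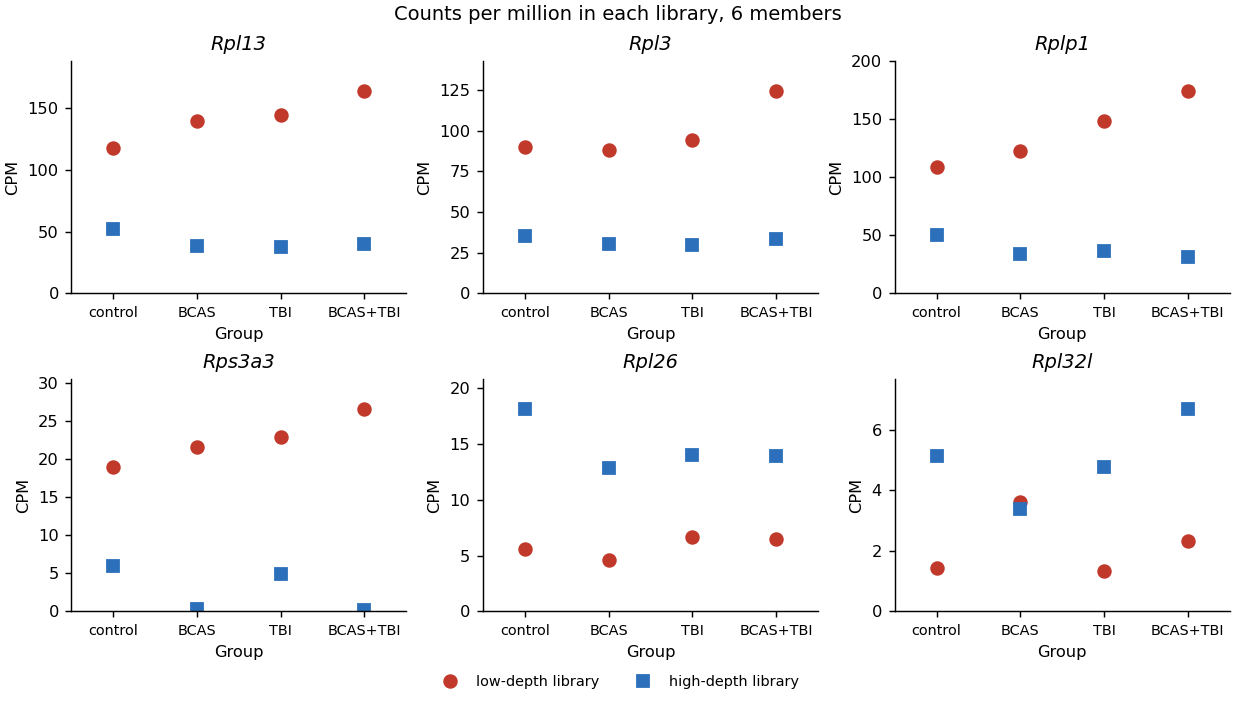
Each panel is 1 member, with the group on the horizontal axis and CPM in each library on the vertical axis, circles for low-depth and squares for high-depth libraries. Rpl13, Rpl3 and Rplp1 are higher in every low-depth library, Rpl26 is lower in each (4.65 to 6.64 against 12.8 to 18.1 CPM), Rps3a3 falls to 0.365 and 0.185 CPM in BCAS 2 and BCAS+TBI 1, and the sets cross in BCAS for Rpl32l.

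Paralog pairs were set side by side as the share of the pair's UMIs that came from the variant form. Rpl22l1, a paralog of the RNA-binding protein Rpl22, held 46.8% to 62.5% of the pair over the 8 libraries. Its share was 62.5%, 61.2%, 53.5% and 59.1% in control 1, BCAS 1, TBI 1 and BCAS+TBI 2, against 46.8%, 49.7%, 53.1% and 50.6% in control 2, BCAS 2, TBI 2 and BCAS+TBI 1. The low-depth libraries were above the high-depth ones, with overlapping Wilson 95% intervals between the 2 TBI libraries (51.7% to 55.4% and 50.9% to 55.3%). In endothelial nuclei its share was lower, with a median of 31.8% over libraries against 55.9% in excitatory neurons. Rpl7l1, which acts in ribosome assembly, held 28.1% to 45.7% of its pair with Rpl7, and was lower in all 4 low-depth libraries (28.1% to 35.8%) than in the high-depth ones (40.9% to 45.7%). Rps27l, a p53-induced paralog of Rps27, held 9.51% to 10.57% in the low-depth libraries and 11.12% to 11.98% in the high-depth ones. Rpl3l held 0.355% to 0.634% of its pair with Rpl3 in the low-depth libraries and 0.970% to 1.13% in the high-depth ones. For both pairs the Wilson 95% intervals of the libraries of a group overlapped. A 3′ tag counts a molecule once whatever its length, but capture can differ between the 2 forms of a pair, so these shares are read across libraries and types only.

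To ask whether injury changed ribosomal protein genes, libraries with TBI surgery were compared with those without, averaged over BCAS. No member passed the test, and 0.0% of all 23823 genes did (778 had an unadjusted p under 0.05, 4 of them members). The median over members was a log2 fold change of 0.14, with 84 of 85 values above 0, against a median of -0.01 and 47.8% above 0 for all genes. Because members moved together between libraries, such counts of signs, here and in the comparisons below, are not separate results. The 6 members with the smallest p-values were Rps28, Rps27, Rps27l, Rpl41, Rps21 and Rps15a. Rps28, a small protein near the mRNA exit channel, was at 50.4 and 54.7 CPM in TBI 1 and BCAS+TBI 2 against 37.5 and 32.6 CPM in control 1 and BCAS 1, and at 16.4 and 16.2 CPM in TBI 2 and BCAS+TBI 1 against 17.6 and 13.8 CPM in control 2 and BCAS 2. The low-depth TBI libraries were above the low-depth libraries without TBI, and the high-depth libraries overlapped. Its log2 fold change was 0.34 (SE 0.11, unadjusted p = 0.0177, adjusted p = 0.995). Rps27, which binds zinc, was at 119.7 and 120.7 CPM in the low-depth TBI libraries against 83.8 and 76.0 CPM without TBI, while the high-depth libraries overlapped, at 33.01 and 33.2 CPM with TBI against 36.0 and 30.1 CPM without (0.31, SE 0.11). Rps27l (0.31, SE 0.13), Rpl41 (0.29, SE 0.13), Rps21 (0.29, SE 0.13) and Rps15a (0.22, SE 0.10) had values of like size.

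Among low-depth libraries the summed share was 0.127 percentage points higher in TBI than in control and 0.175 higher in BCAS+TBI than in BCAS. Among high-depth libraries the differences were -0.0352 and 0.0045 points, and the mean of the 4 was 0.0677 ± 0.0993 (SD, n = 4). The 5 erythroid markers, haemoglobin genes among them, summed to 403 and 440 CPM in TBI 1 and BCAS+TBI 2, the libraries with the largest shares. They summed to 72.5 and 182 CPM in control 1 and BCAS 1. In control 2, BCAS 2, TBI 2 and BCAS+TBI 1 they were at 175, 164, 50.3 and 85.1 CPM. Outside TBI 1 and BCAS+TBI 2 they did not follow the share, and a link between the 2 was not tested. With the nuclei of 2 clusters led by haemoglobin genes left out, the mean difference was 0.05 ± 0.0708; it was 0.0379 with at most 1% mitochondrial UMIs and 0.135 over all deposited barcodes. It was 0.0320 without BCAS 1 or BCAS+TBI 2 and 0.102 without control 2 or TBI 2. The median over members was -0.003 without control 1, 0.01 without BCAS+TBI 2, 0.32 without control 2 and 0.30 without BCAS+TBI 1.

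BCAS surgery was compared in the same way. No member passed the test, against 0.0% of all genes (567 had an unadjusted p under 0.05, 1 of them a member). The median over members was -0.04, with 21 values above 0 and 64 below. Rps3a1, a small-subunit protein and the parent of Rps3a2 and Rps3a3, had the smallest p-value. It was at 45.7 and 62.9 CPM in BCAS 1 and BCAS+TBI 2 against 45.3 and 51.5 CPM in control 1 and TBI 1, and at 19.6 and 20.6 CPM in BCAS 2 and BCAS+TBI 1 against 18.1 and 15.7 CPM in control 2 and TBI 2. The low-depth libraries overlapped between groups and the high-depth ones did not (log2 fold change 0.21, SE 0.09, unadjusted p = 0.0484, adjusted p = 1.0). Rpl26 (-0.20, SE 0.12), Rps3a3 (given above), Rps3a2 (-0.53, SE 0.34), Rpl32l (0.45, SE 0.31) and Rps6, the classic target of S6 kinase (-0.17, SE 0.12), followed. The mean within-set difference in summed share was 0.0092 ± 0.0486 percentage points (SD, n = 4), below 0 in both high-depth pairs and above 0 in both low-depth pairs. Its sign rested on single libraries: it was -0.0108 without TBI 1 or BCAS+TBI 2, 0.0053 without control 1 or BCAS 1, 0.0145 without TBI 2 or BCAS+TBI 1, and 0.0277 without control 2 or BCAS 2. It was 0.0172 without the haemoglobin-led clusters and 0.0268 over all deposited barcodes. The median over members was 0.09 without control 2, 0.07 without BCAS+TBI 1, -0.18 without control 1 and -0.18 without BCAS+TBI 2.

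Whether BCAS altered the response to TBI was asked with the interaction of the 2 surgeries and with BCAS+TBI against TBI alone; these share libraries with the comparisons above. No member passed either test, and 0.0% of all genes did in each (744 and 778 had an unadjusted p under 0.05, among them 1 and 2 members). The interaction's median over members was 0.22, with 82 of 85 above 0, and that of BCAS+TBI against TBI was 0.07. Values over all genes are not set beside these, nor beside the count of signs for BCAS, so they cannot be placed against the other genes. Rpl3 had the smallest p-value in the interaction (log2 fold change 0.41, SE 0.17, unadjusted p = 0.0430, adjusted p = 0.9996), at 89.8, 88.3, 94.4 and 124 CPM in the low-depth control, BCAS, TBI and BCAS+TBI libraries and at 35.2, 30.3, 30.02 and 33.6 CPM in the high-depth ones. Rpl36a (0.50, SE 0.25), Rpl7l1 (0.33, SE 0.19), Rps6 (0.38, SE 0.24), Rps28 (0.35, SE 0.22) and Rpl26 (0.38, SE 0.24) came next. In BCAS+TBI against TBI the leading values were those of Rps3a1 (0.35, SE 0.13), Rpl3 (0.30, SE 0.12), Rpl15 (0.18, SE 0.12), Rpl36a (0.24, SE 0.18), Rpl32l (0.58, SE 0.43) and Rpl22l1 (0.16, SE 0.13). Without BCAS+TBI 2 the median of the interaction was -0.07 and that of BCAS+TBI against TBI was -0.21, both of the opposite sign. Without control 2 the interaction's median was -0.14, and without TBI 2 that of BCAS+TBI against TBI was -0.02.

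To place the members in cells, nuclei were assigned to a type when they held at least 3 markers of excitatory or inhibitory neurons, or at least 4 of another class, and passed the gate of only 1 class. In each library the share of UMIs in ribosomal protein genes was lowest in excitatory neurons and highest in endothelial nuclei, in 8 of 8 libraries. Excitatory neurons were at 0.354%, 0.380%, 0.372% and 0.493% in control 1, BCAS 1, TBI 1 and BCAS+TBI 2 and at 0.148%, 0.124%, 0.144% and 0.137% in the high-depth ones. Endothelial nuclei, of the vessel lining, were at 1.60%, 1.87%, 3.14% and 1.98% and at 1.34%, 0.911%, 1.146% and 0.751%. With no match for depth, mural cells were above microglia, microglia above oligodendrocytes, oligodendrocytes above astrocytes and inhibitory above excitatory neurons in 8 of 8 libraries each. The order of oligodendrocyte precursors, astrocytes and fibroblasts changed between libraries.

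**Figure D4:**
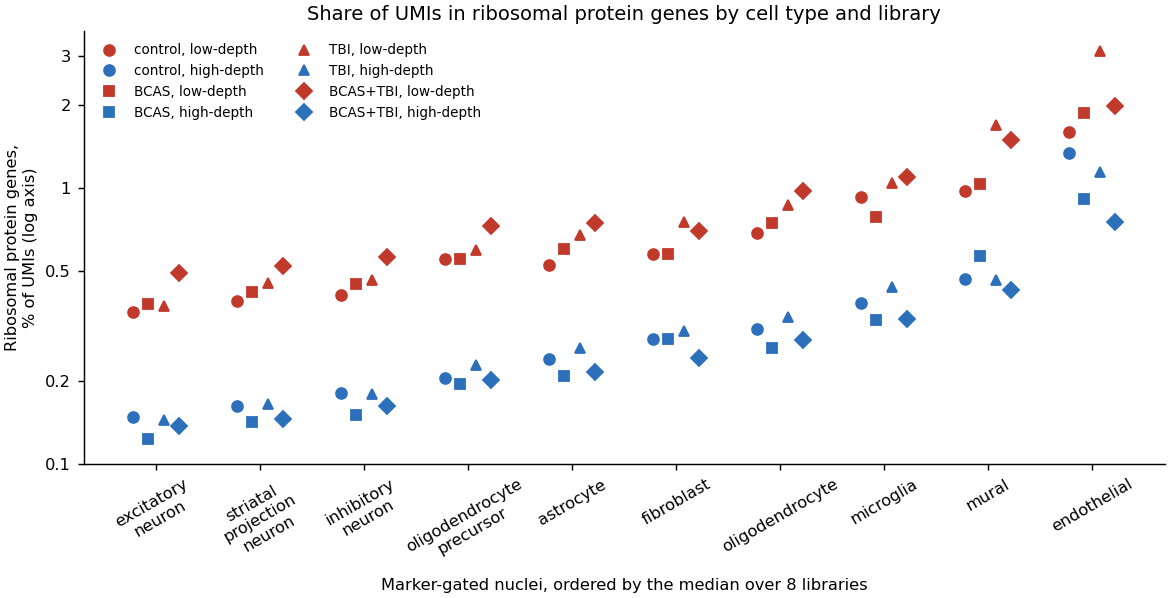
Each point is 1 library within 1 marker-gated cell type, with types on the horizontal axis in order of their median and the percent of UMIs in the 85 members on a log vertical axis; shape gives the group and colour the library set. Values run from 0.124% in excitatory neurons of BCAS 2 to 3.14% in endothelial nuclei of TBI 1, and within each type and group the red (low-depth) point lies above the blue (high-depth) one.

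Nuclei of these types differ in depth, with a median of 6851 UMIs in excitatory neurons and 1023 in endothelial nuclei. Among nuclei of at least 1000 and under 2000 UMIs endothelial nuclei were again highest in 8 of 8 libraries, at 1.94% to 2.55% in the low-depth set and 0.624% to 0.891% in the high-depth set. Excitatory neurons, with 13 to 48 such nuclei per library, were at 0.690% to 1.16% and 0.288% to 0.376%, lowest in 0 libraries, and were exceeded by microglia in 7 and by astrocytes in 1. Inhibitory neurons, with 2 to 23 such nuclei per library, were above excitatory neurons in only 1 library. Mural nuclei, with 2 to 29, were below microglia in BCAS+TBI 1 (0.229% against 0.367%) and BCAS+TBI 2 (0.819% against 1.107%) and above them in the others. Over all nuclei of each type, with no match for depth, mean CPM over libraries was compared member by member: 78 of 85 were highest in endothelial nuclei and 59 were lowest in excitatory neurons. No share over all genes stands beside these counts, so they do not set the members apart from other genes. The endothelial nuclei counted here include those of the haemoglobin-led clusters described below. The ratio of endothelial to excitatory CPM, also not matched for depth, had a median of 6.06 and was 9.38 for Rps27l. The exceptions were Rpl32l, highest in oligodendrocytes, Rps3a2 in oligodendrocyte precursors, Rpl7l1 in microglia, and Rpl22l1, Rps4l, Rpl29 and Rpl3l in mural nuclei. Several of them had few UMIs over all libraries and types: 135 for Rpl3l, 200 for Rps3a2, 720 for Rpl29 and 880 for Rps4l. In mural nuclei of BCAS+TBI 2 a count of 1 UMI equals 41.3 CPM. The highest type of such members can therefore rest on very few UMIs.

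A small population had a far larger share. The 2 clusters led by haemoglobin genes, with 212 nuclei in all, were at 2.79% to 4.16% in the high-depth libraries and at 5.99% to 8.27% in the low-depth ones. Pooled over all libraries they were at 5.12%, and the next highest of the 37 clusters was at 1.14%. Clusters were made without ribosomal protein and mitochondrial genes. These nuclei carried 3.67% to 4.17% mitochondrial UMIs, near the limit of 5% set for kept nuclei. Of them 157 passed several gates and 37 passed the endothelial gate alone. The endothelial markers Cldn5 and Ly6c1 were also among the leading genes of both clusters. These nuclei are left without a name. Without them TBI 1 endothelial nuclei were at 1.77% in place of 3.14%, while the range over the other libraries was 0.735% to 1.84%.

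The difference between library sets was present within cell types. Of 617 pairs of a member and a type that could be tested, 581 were higher in the low-depth set and 7 lower, against 19.3% and 15.6% of 79859 pairs over all genes. The pairs that fell were Rpl26 in the 4 types given above and Rpl32l in excitatory neurons (-1.70, SE 0.30), inhibitory neurons (-1.69, SE 0.53) and oligodendrocytes (-1.33, SE 0.42). Member medians ran from 1.12 in endothelial nuclei to 1.69 in fibroblasts. The number of members that passed the filter on low counts fell from 83 in excitatory neurons to 15 in fibroblasts, so the medians cover different members. Within a group the low-depth library had on average 2.91 ± 0.536 times the share of the high-depth one in excitatory neurons, 2.78 ± 0.545 in astrocytes, 2.61 ± 0.441 in microglia and 2.16 ± 0.712 in endothelial nuclei (SD, n = 4 groups). In endothelial nuclei the ratio was 1.19 in control and 2.74 in TBI, and without the haemoglobin-led clusters it was 1.20 in control and 1.59 in TBI, with a mean of 1.803 ± 0.507. RNA free in the suspension would enter every type, and its part in these values was not tested.

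In the 4 group comparisons no member passed the test in any type, where 0.0% of pairs over all genes passed for TBI, 0.0025% for BCAS, 0.0113% for the interaction and 0.00125% for BCAS+TBI against TBI. Unadjusted p-values under 0.05 were found for 89, 31, 21 and 38 of the 617 member pairs and for 3602, 3007, 4020 and 3382 of all pairs. For TBI the member medians were between 0.14 in excitatory neurons and 0.30 in mural cells and above 0 in 10 of 10 types. All types come from the same libraries, so their medians are not separate results. In endothelial nuclei, at 0.15 by the gate, the TBI median was -0.14 without the haemoglobin-led clusters (27 of 77 members above 0) and -0.06 when taken from clusters. The 2 smallest p-values belonged to Rpl35a in oligodendrocytes (log2 fold change 0.92, SE 0.23, adjusted p = 0.712) and Rps27 in excitatory neurons (0.34, SE 0.08, adjusted p = 0.712). For BCAS, 76 of 78 members tested in endothelial nuclei were below 0, none of them called, with a median of -0.43 against -0.03 over all genes tested there. The endothelial median for BCAS was -0.28 without the haemoglobin-led clusters and -0.12 when endothelial nuclei were taken from clusters in place of the gate. The library pairs did not share 1 direction. Without the haemoglobin-led clusters the endothelial share was 1.575% in control 1 and 1.84% in BCAS 1, and 1.77% in TBI 1 and 1.72% in BCAS+TBI 2. In the high-depth set it was 1.31% in control 2 and 0.886% in BCAS 2, and 1.11% in TBI 2 and 0.735% in BCAS+TBI 1.

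Between the library sets, low depth went with more mitochondrial RNA and more ribosomal protein RNA. Within the low-depth set the member share did not follow low depth: it was 0.445% at 28118725 UMIs (control 1) and 0.572% at 33363564 UMIs (TBI 1). Mitochondrial genes took 0.807% to 1.37% of UMIs in the low-depth libraries and 0.404% to 0.608% in the high-depth ones. Within barcodes of like mitochondrial content the sets remained apart: at 0.5% to 1% mitochondrial UMIs the members took 0.427% to 0.553% in the low-depth libraries and 0.173% to 0.216% in the high-depth ones, a ratio of 2.55 ± 0.181 (SD, n = 4 groups). At 2% to 5% the ratio was 1.58 ± 0.546, and the sets overlapped, from 0.772% to 1.53% and from 0.546% to 0.873%. Within bins of UMIs per nucleus the mean ratio was between 2.15 and 3.96, and from 4000 to under 8000 UMIs it was 2.32 ± 0.536. In both sets the share rose with mitochondrial content up to 5% to 10%, and it fell from the lowest UMI bin up to the one of 4000 to under 8000 UMIs.

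**Figure D5:**
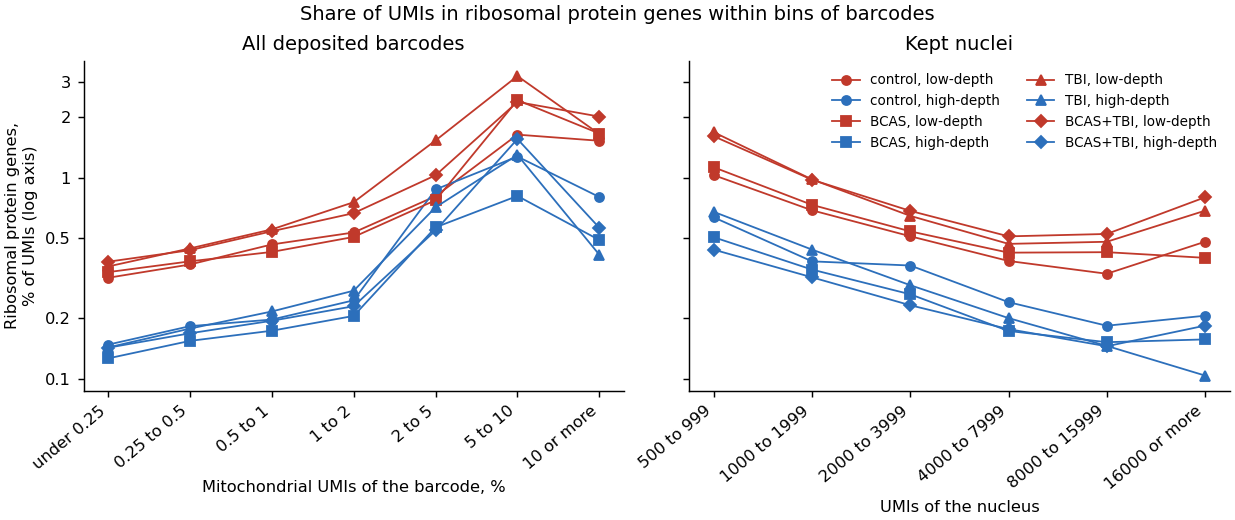
Each line is 1 library, with bins of mitochondrial percent (left, all deposited barcodes) or UMIs per nucleus (right, kept nuclei) on the horizontal axis and the percent of UMIs in the 85 members on a log vertical axis. At 0.5% to 1% mitochondrial UMIs the low-depth lines lie at 0.427% to 0.553% and the high-depth lines at 0.173% to 0.216%.

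Other genes of the same machinery were counted from lists chosen beside the members. None of their genes passed the test in a group comparison. Their counts between library sets stand against 31.4% of all genes higher and 27.0% lower. Between library sets 21 of 32 translation factors and other TOP genes rose and 2 fell, with a median of 0.48, among them Snhg8 (1.07, SE 0.08) and Gas5 (0.61, SE 0.05), snoRNA host RNAs that start with a TOP tract, and the elongation factor Eef1a1 (0.97, SE 0.08). Of 80 mitochondrial ribosomal proteins tested 63 rose and 5 fell (median 0.64), with Mrpl41 at 1.07 (SE 0.06), Mrpl52 at 1.09 (SE 0.07) and Mrps26 at 0.95 (SE 0.07). Ribosome biogenesis genes, whose proteins act in the nucleolus, gave 9 of 32 higher and 6 lower with a median of 0.10, shares near or below those over all genes; the smallest p-values were those of the nucleolin gene Ncl (0.56, SE 0.05), Nop10 (1.08, SE 0.12) and Polr1c (0.70, SE 0.08). The list of mTOR and TOP mRNA control gave 5 of 22 higher and 11 lower with a median of -0.22. The smallest p-values were those of Rictor (-0.55, SE 0.06) and Rptor (-0.51, SE 0.05), partners of mTOR in its 2 complexes. Tsc1, an upstream inhibitor of the complex with Rptor, came next (-0.43, SE 0.05).

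Abundant cytoplasmic mRNAs of neurons and other cells gave 22 of 27 higher and 2 lower (median 0.83), with Cst3 at 2.01 (SE 0.08), Cox4i1 at 1.63 (SE 0.12) and Itm2b at 0.83 (SE 0.06). Of 30 genes of the mitochondrial genome 22 rose and 0 fell (median 0.90), among them mt-Co3 at 1.22 (SE 0.17), mt-Nd1 at 0.88 (SE 0.13) and mt-Atp6 at 1.02 (SE 0.17). Of 12 nuclear-retained long noncoding RNAs 2 rose and 7 fell, with a median of -0.49: Malat1 rose by 1.02 (SE 0.07), from 28200 to 32780 CPM in the high-depth set to 62080 to 77480 CPM in the low-depth set, while Snhg14 (-0.67, SE 0.05) and Miat (-0.66, SE 0.05) fell. The members' median of 1.30 was above that of each of these 7 lists. What the library sets have in common besides depth is not given in the labels, so depth and any other difference between them cannot be told apart.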

How the data were processed

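The authors deposited whole-number UMI counts per gene and barcode, and per the file headers Cell Ranger 7.0.0 wrote them. The submitters' processing notes name builds GRCm38 and mm10 and the tool Seurat, and whether intronic reads were counted is not given in the sources used here. A barcode was kept from 500 UMIs and 300 genes upward if mitochondrial genes took no more than 5% of its UMIs. Scrublet's own threshold marked too few, so the 6% with the highest score were removed in each library (3001 in all). Types came from a gate on fixed markers. Counts summed per library, or per library and type (for the 10 types that had 20 nuclei or more in each library), entered tests with edgeR 4.0.16 (quasi-likelihood) under R 4.3.3 (TMM scaling, minimum count of 10, group and library set as terms), with Benjamini-Hochberg adjustment over all genes or all type-gene pairs and a threshold of 0.05. On simulated data for the TBI comparison over 23823 genes, 66 of 100 genes changed 2-fold and 88 of 100 changed 4-fold were recovered, with 13 false calls. The simulated libraries shared the same mean profile, with no difference between library sets, and no smaller changes were simulated. The recovery therefore does not describe changes as small as the member medians. Members, lists and tests were chosen with earlier results of these data known. Named were, per comparison, the 6 members with the smallest p-values, those among the 6 with the most UMIs, paralogs, members at the edge of the minimum, and up to 3 genes per list by p. Others (Rplp0, Rpl4, Rpl22, Rps3a3 across types) were picked after their values were seen. Results for a few members are not reported here. Promoter letters are RefSeq's, and gene positions are GENCODE M21. Alternatives included DESeq2 1.42.0, other scalings and filters, and each library left out.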

Additional observations from a re-analysis of the deposited data

Results flagged for a closer look

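In 70 sets of 4 libraries of 1 depth set, 4 had 1 library far from the other 3, where chance flags about 1 in 20. BCAS+TBI 2 stood above the other low-depth libraries for Rpl3 (124 CPM against 88.3 to 94.4) and Rpl22l1 (73.0 CPM against 55.8 to 57.2). Control 2 stood above the other high-depth libraries for Rpl13 (52.1 CPM against 37.6 to 39.6) and Rpsa (28.3 CPM against 23.2 to 23.3).

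Barcodes that failed the filter entered only the values given for all deposited barcodes and the bins of mitochondrial content. In each library they carried a larger share of ribosomal protein UMIs than the kept nuclei did. The share was 1.60% in control 1, 1.05% in control 2, 2.20% in BCAS 1, 0.720% in BCAS 2, 2.68% in TBI 1, 1.02% in TBI 2, 1.14% in BCAS+TBI 1 and 2.26% in BCAS+TBI 2. In kept nuclei it was 0.172% to 0.641%.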

How the results depend on the processing

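Counts of members called kept their size under all but 4 of the alternatives to them. With no filter on low counts 1 member-type pair was called for TBI (Rps27 in excitatory neurons), 2 for BCAS (among them Rps3a3 in excitatory neurons) and 1 for BCAS+TBI against TBI, where the filtered fit called 0; more pairs were tested. DESeq2 called 0 members in each group comparison of whole libraries and of types. With at most 1% mitochondrial UMIs 357 of 389 pairs tested differed between library sets in place of 588 of 617; fewer pairs passed the filter. Leaving out 1 library at a time gave 84 to 84 calls over whole libraries, 503 to 562 over types, and 0 to 0 in each group comparison. The ratio of shares between sets was 2.31 with kinases and pseudogenes counted, 3.42 over all deposited barcodes, and 2.62 to 3.16 with 1 library out. In those fits the uncalled values of Rpl15 and Rpl22l1 in BCAS+TBI against TBI ran from -0.00842 to 0.31 and from -0.06448 to 0.33, and their signs turned without BCAS+TBI 2 (that of Rpl22l1 also without TBI 1); the cause was not tested.

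Replicate numbers did not follow the library sets: replicate 1 deviated from its group mean alike in control, BCAS and TBI (correlations of 0.684 to 0.812) and oppositely in BCAS+TBI (-0.757 to -0.858). Replicate 1 is the low-depth library in control, BCAS and TBI and the high-depth one in BCAS+TBI. The correlations therefore cannot show whether the numbers mark some other pairing. With the replicate block in place of the library set, 0 members were called in each group comparison and Rps3a3 for BCAS turned to 0.12. The block and the fit without a set term give no comparison of the sets. With 2 libraries per group, the spread and the depth limit what these group comparisons can show.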
